A study of Mus musculus with 6 samples.

Results

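The genes of the p53 response were read in SLAM-LSK cells of mouse bone marrow, a sorted fraction in which haematopoietic stem cells are enriched. The list was chosen by name and held 36 symbols, namely Trp53 itself, its regulators, and genes known as its targets or linked to it. Of these, 32 had a row in a table of 18465 genes, and 30 had a mean of at least 1 TPM over the 6 libraries and were tested. TPM counts the reads of a gene per length and sets every library to 1 common total. Pmaip1, Phlda3, Gdf15 and Pltp had no row and are not analysed here, and Eda2r and Tigar lay under 1 TPM. The groups were 3 libraries from C57BL/6 mice of genotype MecomWT:R751W, in which the transcription factor gene Mecom has 1 normal allele and 1 R751W allele, and 3 libraries from WT C57BL/6 mice. Both genotypes were sorted for the same surface markers (CD150+, CD48-, lineage-, Sca1+, cKit+), and neither carried a treatment. The labels name the libraries of each genotype as biological replicates, give no age or sex, and do not say that each came from a separate animal. The p-values therefore rest on the spread among these libraries, and whether that is a spread among animals is not stated.

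p53 is a transcription factor that is kept scarce by the ubiquitin ligase MDM2 and its partner MDM4, and that is stabilised when kinases sense DNA damage or other stress. Once stable it switches on genes of cell cycle arrest, DNA repair and apoptosis, as well as its own inhibitors, so that the response is self-limiting. In haematopoietic stem cells p53 is known to favour quiescence, and its loss gives stem cells an advantage after damage. Its activity is set largely at the protein level, so transcripts of its targets are the usual sign of it in RNA data.

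None of the 30 tested members passed the adjusted threshold in either direction, and most lay close to 0. On the log2(TPM + 1) scale 17 members were above 0 (49.0% of all genes were) and 13 below in MecomWT:R751W against WT, with a median log2 fold change of 0.019, beside a median of -0.004 over all 16655 genes tested. The smallest adjusted p among the members was 0.674 by limma with Benjamini-Hochberg adjustment over all genes. Of all genes in the table, 0% passed it. At an unadjusted p under 0.05 there were 3 members, Bbc3 and Trp53inp2 (lower) and Gtse1 (higher), which is 10% of the members against 5.97% of all genes (2.74% higher and 3.23% lower). In 4 members, these 3 and Rrm2b, the libraries of the genotypes did not overlap, which is 13.3% of the members against 9.19% of all genes (4.50% higher and 4.70% lower). Counts this small do not set the members apart from the table. Members at an unadjusted p under 0.05 numbered 5 (16.7%) in each of 3 other fits, against 7.67% of genes in protein-coding rows alone, 9.70% with voom, a count-based form of limma, on the whole reads implied by the TPM ratios, and 9.70% with the replicate number as a block. Of these fits, 1.16% of genes passed the adjusted threshold in protein-coding rows, 0.300% with voom and 0% with the block, and 0 members passed in any. Over all rows the number of such members was 0 when either MecomWT:R751W replicate 3 or WT replicate 1 was left out, and 1 to 5 when any other library was, with 5 in the absence of WT replicate 3.

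The precision sets what could have been seen. For 22 of the 30 members the 95% confidence interval of the log2 fold change lay within 0.585 of 0, a 1.5-fold change of TPM + 1, and for 29 it lay within 1, a 2-fold change. Plk2 was the exception to the wider bound. Low genes are compressed on this scale, so the bounds say least for Perp, Fas, Zmat3, Bbc3 and Trp53inp2, which were all under 4 TPM in each library.

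p53 binds DNA at an element made of a pair of similar half-sites. That element was searched in RefSeq promoters of the assembly GRCm38.p6, each taken from 250 bases before to 50 bases after a transcript start, and 28 of the 36 members had such a promoter. With at most 1 letter of the 20 off the p53 consensus, the central C and G of each half-site intact and a gap of up to 13 bases between half-sites, the element was found in 3 members, or 10.7%, against 0.635% of 17492 protein-coding genes. With at most 2 letters off it was found in 5 members, or 17.9%, against 4.44%. The consensus reads the same on both strands, and overlapping matches were counted once per gene. The members were listed as known targets of p53 or genes linked to it, so these shares describe the list and test nothing. A match describes letters and was not shown to be bound in these cells. The 5 stretches are shown because they let the expression of genes with a p53 element at a transcript start be read beside it. Capitals mark the half-sites, each stretch is written 5′ to 3′ on the strand of the gene, and the sequences are from RefSeq.
Ccng1, chr11:40755442-40755501, minus strand: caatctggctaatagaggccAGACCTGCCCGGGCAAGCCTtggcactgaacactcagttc
Gtse1, chr15:85859925-85859984, plus strand: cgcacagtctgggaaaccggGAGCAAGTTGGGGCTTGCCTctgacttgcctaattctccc
Rps27l, chr9:66946276-66946335, plus strand: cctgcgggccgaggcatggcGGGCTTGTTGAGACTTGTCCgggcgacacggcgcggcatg
Bax, chr7:45467059-45467119, minus strand: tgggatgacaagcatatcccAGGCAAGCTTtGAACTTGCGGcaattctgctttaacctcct
Sesn1, chr10:41887233-41887295, plus strand: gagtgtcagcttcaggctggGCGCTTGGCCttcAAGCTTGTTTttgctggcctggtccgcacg
In Gtse1 the element lies across a transcript start, from 1 base before it to 18 bases after it. In Ccng1, Rps27l, Bax and Sesn1 it lies before a transcript start, with its first base at positions -195, -117, -201 and -186 in that order, counting the start as 0. For Ccng1 and Bax this is also outside the gene as RefSeq spans it. For Gtse1, Rps27l and Sesn1 the start is an internal one, and the element begins 254, 1672 and 76679 bases past the first base of the gene in that order, so it is not upstream of all their transcripts. Each of these 3 genes had 2 windows in the search, and counted by window the element with at most 2 letters off was in 12.5% of 40 windows of members, against 3.77% of 21263. None of these 5 genes passed the adjusted threshold. Their log2 fold changes were 0.39 for Gtse1, 0.17 for Rps27l, 0.10 for Bax, 0.03 for Sesn1 and -0.03 for Ccng1.

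Trp53, which encodes p53 (chromosome 11, 69580348 to 69591873 in GRCm38), had the highest level of all members. It was at 45.3, 46.8 and 55.8 TPM in MecomWT:R751W replicates 1, 2 and 3, against 42.8, 38.3 and 46.0 TPM in WT replicates 1, 2 and 3. MecomWT:R751W replicate 3 was the highest library and WT replicate 2 the lowest, and the groups overlapped through MecomWT:R751W replicate 1 and WT replicate 3. The log2 fold change of 0.21 (SE 0.13, 95% confidence interval -0.08 to 0.50) missed the threshold (adjusted p = 0.977 by limma). It was 0.12 without MecomWT:R751W replicate 3. The unadjusted p of Trp53 by limma was 0.138 in this fit and 0.121 in protein-coding rows. With voom it was 0.037 and with the replicate block 0.040, at adjusted p of 0.475 and 0.493.

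Mdm2, the ligase that marks p53 for destruction and is itself a p53 target, stood at 20.6, 15.2 and 18.4 TPM in MecomWT:R751W libraries, against 24.9, 17.8 and 19.8 TPM in WT libraries. The groups overlapped, with WT replicate 1 above the rest, and the log2 fold change was -0.19 (SE 0.16, adjusted p = 1.0 by limma). Without WT replicate 1 it was -0.06. Mdm4, its non-ligase partner, was at 42.5, 32.8 and 39.4 TPM in MecomWT:R751W libraries, against 41.7, 32.7 and 41.0 TPM in WT libraries. These are near-equal sets of values, each with replicate 2 lowest, and the log2 fold change was -0.01 (95% confidence interval -0.33 to 0.31). Its sign turned to 0.00 when libraries were scaled by size factors over protein-coding genes.

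Ppm1d encodes the phosphatase WIP1, which switches off p53 and the damage kinases. It was at 13.7, 10.49 and 15.4 TPM in MecomWT:R751W libraries, against 11.1, 12.03 and 13.04 TPM in WT libraries. MecomWT:R751W held both the highest and the lowest library. Ccng1, whose product cyclin G1 recruits a phosphatase to MDM2 and whose promoter element is shown above, was at 29.3, 21.5 and 25.7 TPM in MecomWT:R751W libraries, against 25.7, 23.5 and 28.7 TPM in WT libraries. The groups overlapped over nearly their whole range, and the log2 fold changes were 0.11 (SE 0.17) for Ppm1d and -0.03 (SE 0.15) for Ccng1. Of these 5 regulators 2 were above 0 and 3 below, with a median of -0.01, and 0 passed. All 5 intervals lay within a 1.5-fold change.

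**Figure D1:**
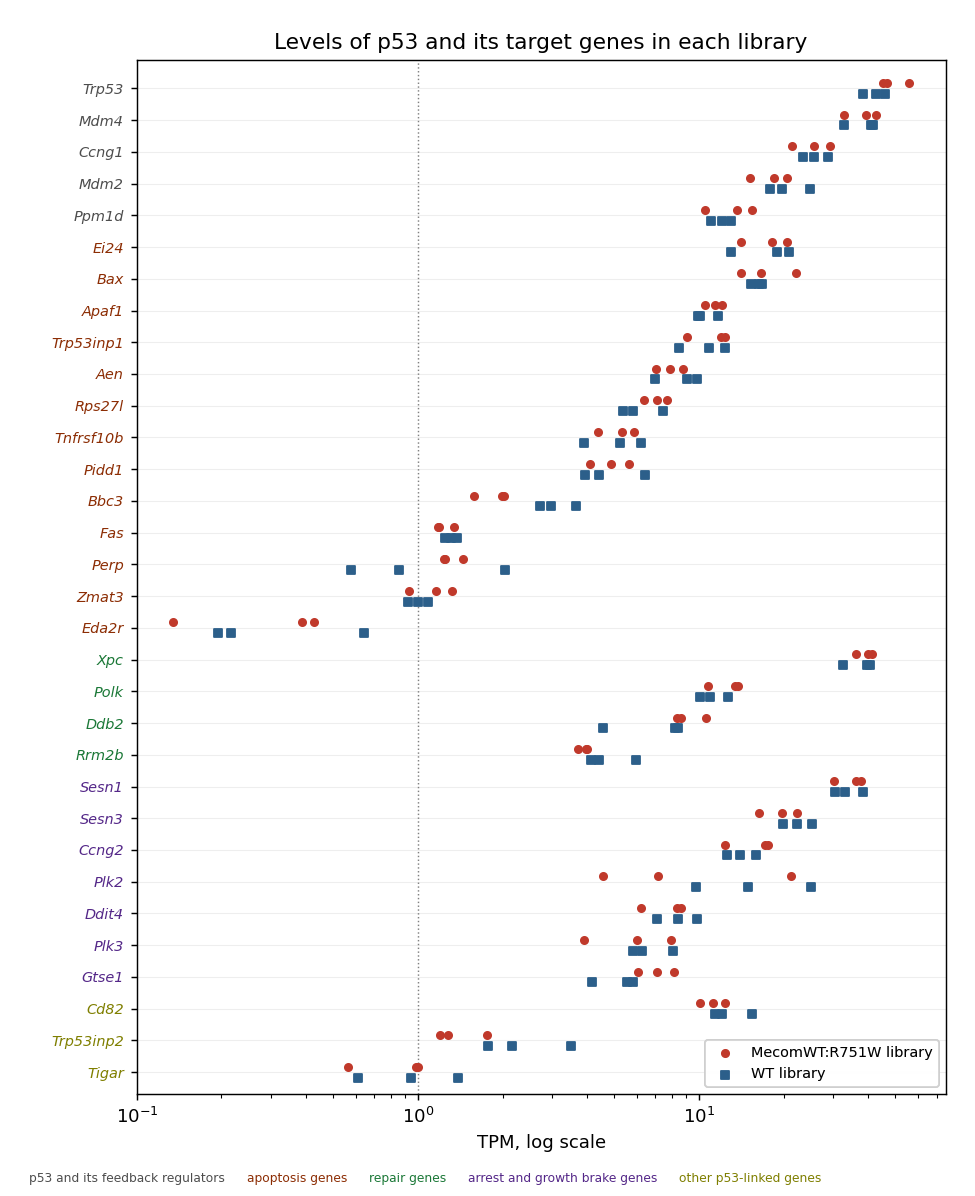
TPM of the 32 members with a row, on a log axis, in each MecomWT:R751W library (red circles) and each WT library (blue squares), ordered by role and level; the dotted line marks 1 TPM. Circles and squares overlap in nearly every row, and Bbc3, at 1.59 to 2.02 TPM in MecomWT:R751W and 2.72 to 3.64 TPM in WT, is the clearest row in which they do not.

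Among the apoptosis genes, Bbc3 differed most between the genotypes. It encodes PUMA, a BH3-only protein that neutralises the survival proteins of the BCL2 family and is a major p53 effector of death in blood progenitors. Bbc3 (chromosome 7, 16308398 to 16318334) was at 2.02, 1.99 and 1.59 TPM in MecomWT:R751W libraries, against 3.64, 2.72 and 2.97 TPM in WT libraries. Every MecomWT:R751W library lay below every WT library. The means were 1.87 ± 0.241 TPM in MecomWT:R751W and 3.11 ± 0.478 TPM in WT (SD, n = 3 each), a ratio of 0.600.

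These levels rest on few reads. The whole reads implied by the TPM ratios were 47, 51 and 43 in MecomWT:R751W libraries, against 88, 72 and 82 in WT libraries. The log2 fold change was -0.52 (SE 0.19, 95% confidence interval -0.92 to -0.11), and it did not pass over all genes (adjusted p = 0.674 by limma). It stayed between -0.59 and -0.43 when any 1 library was left out. The size depends on the pseudocount, at -0.70 with 0.1 and -0.24 with 5, and the adjusted p was 0.295 with voom on the implied reads.

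Bax, the pore-forming protein of the mitochondrial death pathway, was at 22.1, 14.1 and 16.6 TPM in MecomWT:R751W libraries, against 15.3, 16.7 and 16.4 TPM in WT libraries. The MecomWT:R751W libraries spread around the WT libraries, and replicate 1 alone was above them. Its log2 fold change of 0.10 (SE 0.17) became -0.07 without that replicate. In GENCODE M21, 12.2% of the exonic bases of Bax are shared with the predicted gene Gm45808 on the same strand, and the treatment of reads in shared bases is not stated. Ei24, an endoplasmic reticulum protein induced by p53, had the highest mean of the apoptosis genes. It was at 20.6, 14.2 and 18.2 TPM in MecomWT:R751W libraries, against 19.02, 13.01 and 20.98 TPM in WT libraries, with replicate 2 lowest in both genotypes and a log2 fold change of 0.01 (SE 0.19).

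The other 9 tested genes of this role overlapped between genotypes, with log2 fold changes from -0.11 to 0.17. Apaf1, the scaffold of the apoptosome, averaged 11.3 ± 0.796 TPM in MecomWT:R751W and 10.6 ± 0.997 TPM in WT (SD, n = 3 each). Trp53inp1, a stress protein that acts with p53, stood at 0.07, and Aen, a nuclease of apoptosis, at -0.11 on the log2 scale. Rps27l, a ribosomal protein paralog induced by p53 whose promoter element is shown above, averaged 7.05 ± 0.677 TPM in MecomWT:R751W and 6.22 ± 1.11 TPM in WT.

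The death receptor genes were low and alike in level. Fas averaged 1.24 ± 0.0951 TPM in MecomWT:R751W and 1.31 ± 0.0620 TPM in WT, and Tnfrsf10b, a TRAIL receptor, averaged 5.20 ± 0.762 and 5.12 ± 1.16 TPM in the same order (SD, n = 3 each). Eda2r, a receptor of the same family, was at 0.316 ± 0.158 TPM in MecomWT:R751W and 0.351 ± 0.252 TPM in WT and was not tested. Pidd1, the scaffold of the PIDDosome, stood at 0.00, Perp, a membrane protein of apoptosis and adhesion, at 0.16 and Zmat3, an RNA-binding splicing regulator, at 0.09 on the log2 scale. Among the tested members Perp had the highest coefficient of variation in WT (66.9%), at 2.03, 0.576 and 0.858 TPM, on 29, 9 and 14 implied reads. Of the 12 tested apoptosis genes 9 were above 0 and 3 below, with a median of 0.05, and 0 passed in either direction. The count of 9 describes the list and was not tested.

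**Figure D2:**
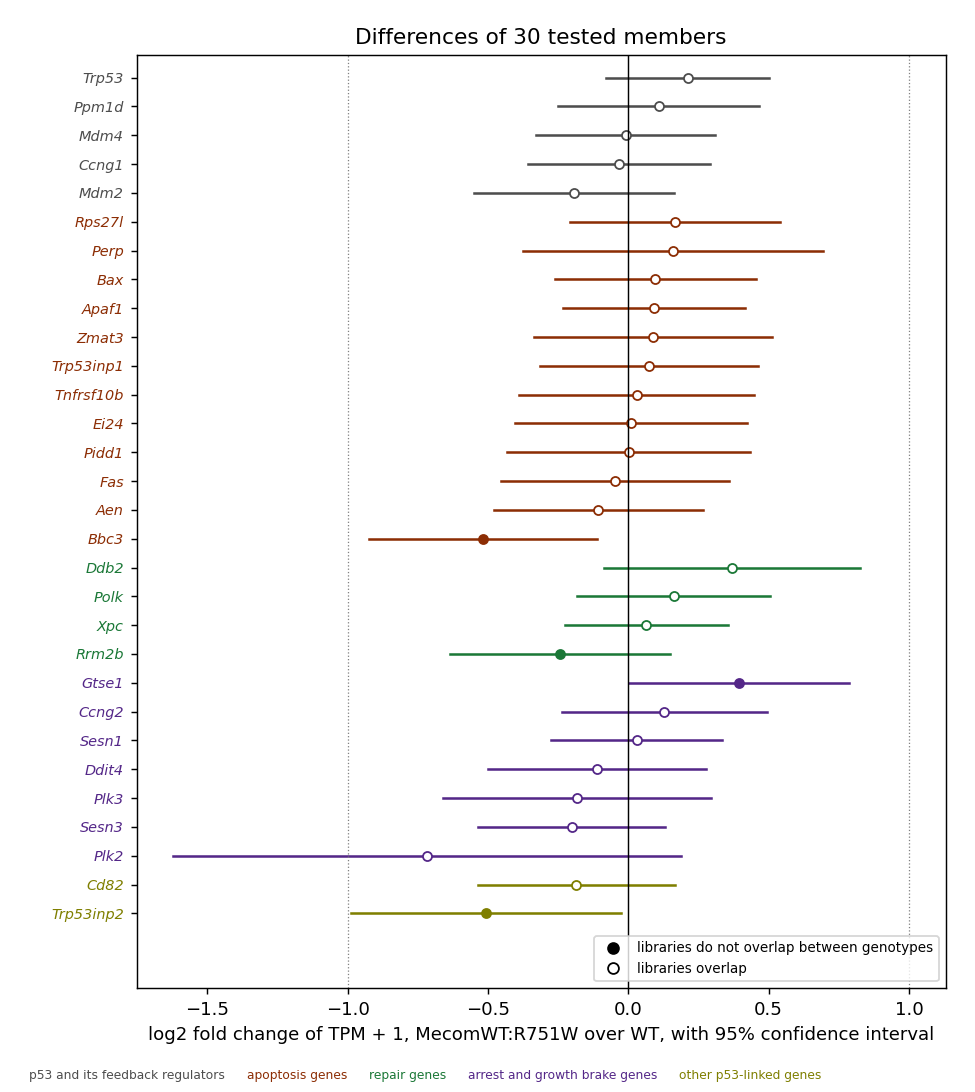
Log2 fold change of TPM + 1, MecomWT:R751W over WT, for the 30 tested members, with 95% confidence intervals from limma and dotted lines at a 2-fold change; filled points mark members whose libraries do not overlap between genotypes. The 4 filled points are Bbc3 at -0.52, Rrm2b at -0.24, Gtse1 at 0.39 and Trp53inp2 at -0.51, and the interval of Plk2 is the widest, from -1.62 to 0.19.

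The repair genes gave small differences of both signs. Xpc, the damage sensor of nucleotide excision repair, was the highest of them, at 41.4, 36.3 and 39.9 TPM in MecomWT:R751W libraries, against 39.7, 32.4 and 40.6 TPM in WT libraries. The groups overlapped, with a log2 fold change of 0.06 (SE 0.13). Rrm2b, the p53-induced subunit of ribonucleotide reductase, was at 3.99, 3.97 and 3.70 TPM in MecomWT:R751W libraries, against 5.97, 4.13 and 4.42 TPM in WT libraries. In GENCODE M21, 8.0% of the exonic bases of Rrm2b are shared with Gm49085 on the opposite strand, and whether strand was used is not stated. All MecomWT:R751W libraries lay below the WT libraries for Rrm2b, by a narrow margin to WT replicate 2. Its log2 fold change was -0.24 (SE 0.18, adjusted p = 1.0 by limma) and became -0.11 without WT replicate 1.

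Ddb2, which recognises ultraviolet damage, was at 10.6, 8.33 and 8.61 TPM in MecomWT:R751W libraries, against 4.56, 8.20 and 8.42 TPM in WT libraries. WT replicate 1 stood far below the rest, while the other libraries of both genotypes ran into each other. The log2 fold change of 0.37 (SE 0.21, adjusted p = 0.943 by limma) was 0.12 without that library. Of the exonic bases of Ddb2, 23.8% are shared with Acp2 on the opposite strand in GENCODE M21, and without a stated strand setting reads of the pair cannot be told apart there. Ei24, Plk3 and Tigar share 6.7%, 3.3% and 3.3% of theirs with other genes on the opposite strand. Polk, a translesion polymerase, averaged 12.7 ± 1.64 TPM in MecomWT:R751W and 11.2 ± 1.33 TPM in WT (SD, n = 3 each), a log2 fold change of 0.16. Of the 4 repair genes 3 were above 0, with a median of 0.11, and 0 passed.

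The arrest and growth brake genes held the largest differences of either sign, and none passed. Gtse1 encodes a microtubule-bound protein of G2 and M phase that takes p53 out of the nucleus, and the element shown above lies across its internal transcript start. Gtse1 (chromosome 15, 85859691 to 85876573) was at 6.05, 7.09 and 8.13 TPM in MecomWT:R751W libraries, against 4.15, 5.53 and 5.83 TPM in WT libraries. Each MecomWT:R751W library was above each WT library. The log2 fold change was 0.39 (SE 0.18, 95% confidence interval 0.00 to 0.79), which did not pass over all genes (adjusted p = 0.833 by limma), and the range was 0.27 to 0.49 with any 1 library left out.

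Genes of G2 and M phase had the same sign as Gtse1, which is not among them. All 20 genes of such a list were above 0, with a median log2 fold change of 0.26, and 0 passed the adjusted threshold. Their summed level was 938, 795 and 877 TPM in MecomWT:R751W libraries, against 671, 694 and 808 TPM in WT libraries, so MecomWT:R751W replicate 2 lay below WT replicate 3. Their mean log2(TPM + 1), in which each gene counts equally, did not overlap. It was 5.05, 4.86 and 4.99 in MecomWT:R751W libraries, against 4.60, 4.67 and 4.84 in WT libraries. Of the 20 genes, 7 were higher without overlap, against 4.50% of all genes. At an unadjusted p under 0.05 by limma 6 were higher, against 2.74% of all genes. Whether the number of cycling cells accounts for the level of Gtse1 was not tested, and in sorted bulk cells a larger share of cells with a transcript and more of it per cell cannot be told apart.

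Plk2, a polo-like kinase that p53 and growth stimuli both induce, had the largest SE of the members. It was at 21.3, 7.12 and 4.54 TPM in MecomWT:R751W libraries, against 24.9, 14.98 and 9.72 TPM in WT libraries. Replicate 1 was highest and replicate 3 lowest in both genotypes, and the groups overlapped. The log2 fold change was -0.72 (SE 0.42, adjusted p = 0.948 by limma), and leaving out a library moved it to -1.29 (MecomWT:R751W replicate 1 absent), -0.29 (MecomWT:R751W replicate 3 absent) or -0.39 (WT replicate 1 absent).

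The immediate early genes respond to stimulation and to handling of cells within minutes. In a list of 22, 21 had a row and all 21 were below 0, with a median log2 fold change of -0.60, and 0 passed the adjusted threshold. At an unadjusted p under 0.05 by limma 12 of the 21 were lower, against 3.23% of all genes. In 3 the MecomWT:R751W libraries were lower without overlap, against 4.70% of all genes. The summed level of the list was 1604, 1061 and 954 TPM in MecomWT:R751W libraries, against 2252, 1781 and 1258 TPM in WT libraries. This sum had the same highest and lowest library within each genotype as Plk2, although single genes of the list, such as Jun in WT, did not. Their part in the values of Plk2 was not tested. Plk3, a related kinase of the stress response, was at 7.93, 3.91 and 6.01 TPM in MecomWT:R751W libraries, against 8.07, 6.24 and 5.83 TPM in WT libraries. It had a log2 fold change of -0.18 (SE 0.22) that became 0.05 without MecomWT:R751W replicate 2.

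Sesn1, a sestrin that restrains the growth kinase mTORC1 and whose promoter element is shown above, was the highest of this role. It was at 37.7, 30.3 and 36.2 TPM in MecomWT:R751W libraries, against 38.2, 33.2 and 30.6 TPM in WT libraries, with full overlap and a log2 fold change of 0.03 (SE 0.14). Its relative Sesn3, better known as a FoxO target, averaged 19.5 ± 2.98 TPM in MecomWT:R751W and 22.5 ± 2.62 TPM in WT (SD, n = 3 each), a log2 fold change of -0.20. Ddit4, another inhibitor of mTORC1, stood at -0.11 and Ccng2, the FoxO-linked relative of Ccng1, at 0.13 on the log2 scale. Of the 7 genes of this role 3 were above 0 and 4 below, with a median of -0.11, and 0 passed.

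The remaining members are linked to p53 in other ways. Trp53inp2, a relative of Trp53inp1 that acts in autophagy, was at 1.76, 1.199 and 1.28 TPM in MecomWT:R751W libraries, against 3.51, 1.78 and 2.16 TPM in WT libraries. The groups were separated only by the small gap between MecomWT:R751W replicate 1 and WT replicate 2. The log2 fold change of -0.51 (SE 0.22, adjusted p = 0.797 by limma) was -0.30 without WT replicate 1. Cd82, a tetraspanin first known as a metastasis suppressor and also a marker of quiescent stem cells, was at 10.1, 11.2 and 12.4 TPM in MecomWT:R751W libraries, against 11.4, 12.1 and 15.5 TPM in WT libraries. The groups overlapped, and the log2 fold change was -0.19 (SE 0.16). Tigar, which diverts glucose from glycolysis, was at 0.850 ± 0.248 TPM in MecomWT:R751W and 0.983 ± 0.387 TPM in WT (SD, n = 3 each) and was not tested.

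**Figure D3:**
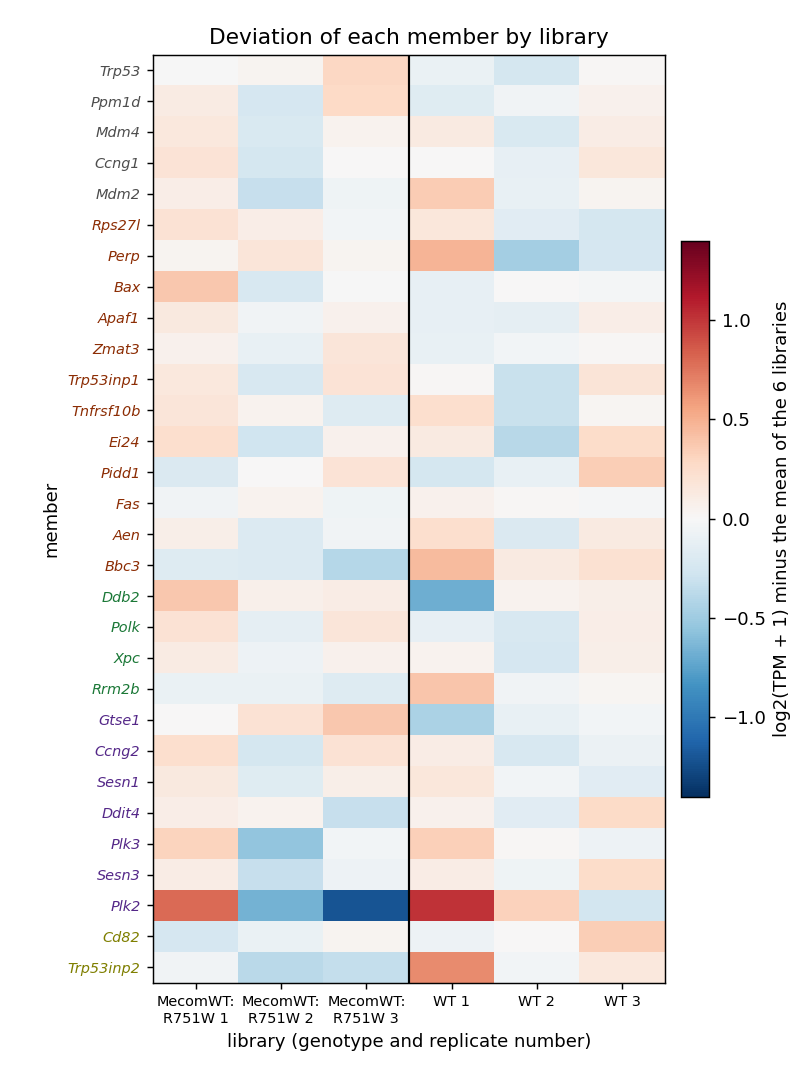
Deviation of each tested member from its mean over the 6 libraries, on the log2(TPM + 1) scale, with red above and blue below; MecomWT:R751W libraries are left of the black line and WT libraries right of it. No column is red or blue throughout, replicate 2 is the lowest of its genotype in 18 of 30 rows for each genotype, and the strongest colours are in the row of Plk2.

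Libraries of the same genotype also differed. The coefficient of variation had a median over the 30 members of 14.7% in MecomWT:R751W and 16.5% in WT. Replicate 2 held the lowest value of 18 of the 30 members in MecomWT:R751W and likewise of 18 in WT. The same library was lowest for 71.7% of tested protein-coding genes in MecomWT:R751W and 69.4% in WT. Protein-coding genes took 26.0% of TPM in MecomWT:R751W replicate 2 and 25.9% in WT replicate 2, against 28.9% to 30.1% in the other 4 libraries. The low values of replicate 2 are therefore shared with most tested protein-coding genes, which took a smaller part of a fixed total there. Mean log2(TPM + 1) over the 30 members was 3.50, 3.24 and 3.36 in MecomWT:R751W libraries, against 3.48, 3.26 and 3.44 in WT libraries, so the genotypes overlapped.

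Genes that act on p53 from upstream stood even closer to 0. Of 29 listed kinases, acetylases, ligases and cofactors, 25 had a row and were tested, 14 were above 0 and 11 below, and 0 passed. Their median log2 fold change was 0.004. The damage kinases Atm and Atr averaged 29.3 ± 2.46 and 15.2 ± 1.597 TPM in MecomWT:R751W, against 27.9 ± 3.40 and 15.2 ± 1.53 TPM in WT (SD, n = 3 each). The smallest unadjusted p values belonged to Hdac1, a deacetylase (log2 fold change -0.25, SE 0.15), Ppp1r13l, the inhibitor iASPP (0.24, SE 0.20), Sirt1, another deacetylase of p53 (-0.17, SE 0.16), and Cop1, a ubiquitin ligase (-0.16, SE 0.18). The libraries of the genotypes did not overlap in 1 of the 25, or 4.00%, against 9.19% of all genes. That gene was Hdac1, at 9.26 to 10.6 TPM in MecomWT:R751W and 11.4 to 12.4 TPM in WT. Cdkn2a, Trp63, Trp73 and Trp53rk had no row.

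A list of 42 further p53 targets, of which 2 (Btg2 and Ier5) are also on the immediate early list, held no gene that passed. Of these 33 were tested, 15 above 0 and 18 below, with a median log2 fold change of -0.06, and 0 passed the adjusted threshold. Cdkn1a, the cell cycle inhibitor p21 and the best known p53 target, was at 3.37, 2.10 and 1.14 TPM in MecomWT:R751W libraries, against 7.30, 2.45 and 2.66 TPM in WT libraries. WT replicate 1 stood apart, the groups overlapped, and the log2 fold change was -0.62 (SE 0.33, adjusted p = 0.926 by limma). Gadd45a, a stress sensor of arrest and repair, was at 9.74, 6.87 and 7.88 TPM in MecomWT:R751W libraries, against 11.00, 7.56 and 12.6 TPM in WT libraries, with a log2 fold change of -0.30 (SE 0.20). Trp53cor1, a long noncoding RNA beside Cdkn1a, was at 1.01 ± 0.378 TPM in MecomWT:R751W and 0.866 ± 0.201 TPM in WT (SD, n = 3 each) and was not tested.

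At an unadjusted p under 0.05 this list held 2 higher and 2 lower genes, or 12.1% of the 33, against 5.97% of all genes. The higher genes were Ckap2 and Psrc1, which like Gtse1 encode proteins of the mitotic spindle. Ckap2 was at 22.3, 20.8 and 25.7 TPM in MecomWT:R751W libraries, against 16.8, 14.2 and 19.4 TPM in WT libraries, and Psrc1 at 15.2, 12.6 and 14.5 TPM in MecomWT:R751W libraries, against 8.35, 10.8 and 11.5 TPM in WT libraries. For both genes the genotypes did not overlap, and the log2 fold changes were 0.43 (SE 0.15) and 0.44 (SE 0.16). The lower genes were Ephx1, an epoxide hydrolase (-0.45, SE 0.19), and Thbs1, an adhesive glycoprotein that was at 3.79, 3.05 and 4.17 TPM in MecomWT:R751W libraries, against 46.6, 15.5 and 3.29 TPM in WT libraries. Thbs1 is also a platelet gene, and WT replicate 3 stood within the MecomWT:R751W range. In this list the libraries of the genotypes did not overlap in 5 genes, or 15.2% of the 33, against 9.19% of all genes. Beside Ckap2 and Psrc1 these were Trim32, higher in MecomWT:R751W, and Ephx1 and Trp53i11, both lower.

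**Figure D4:**
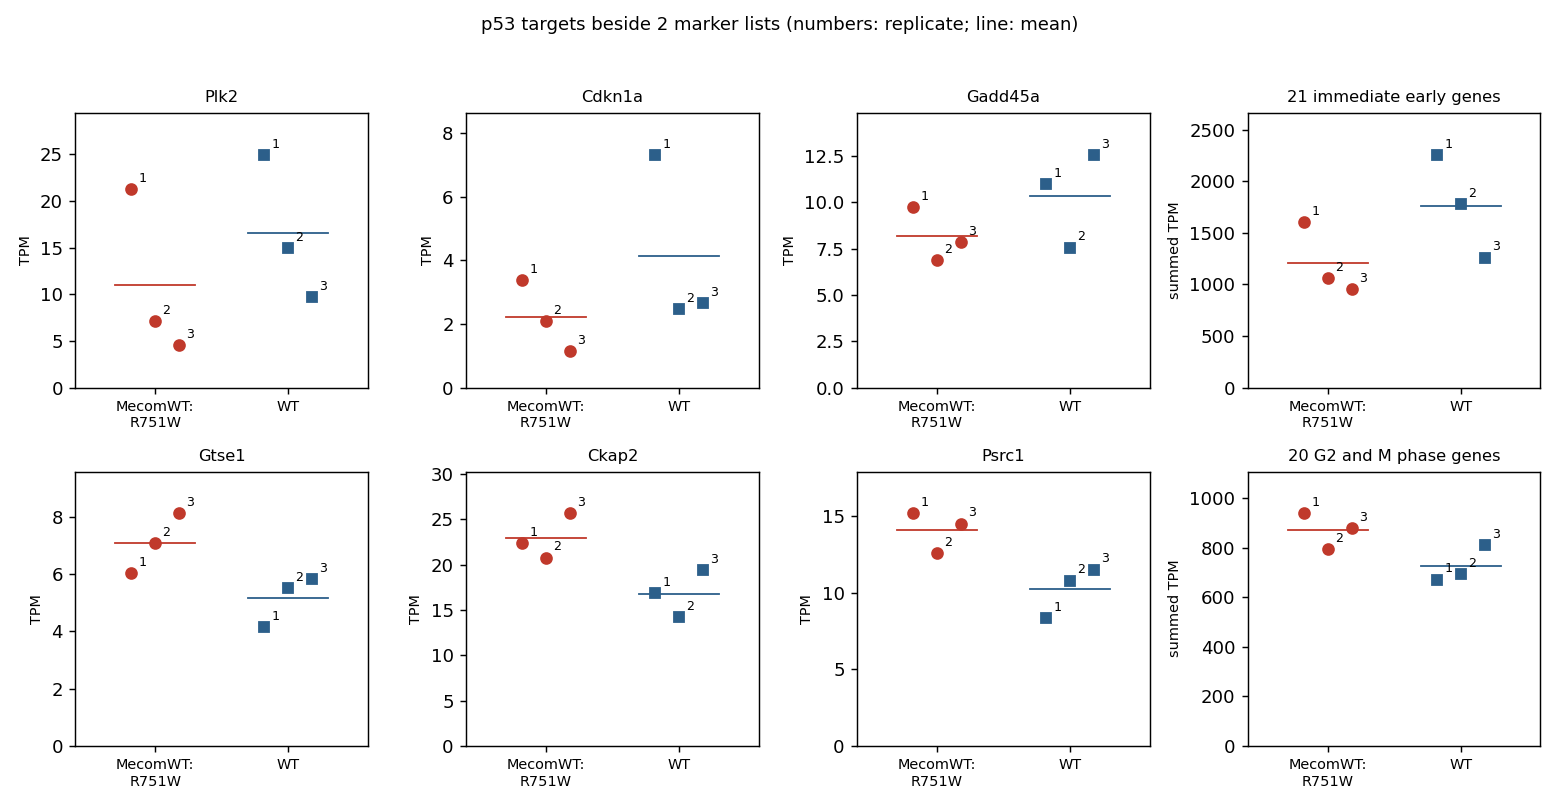
TPM of Plk2, Cdkn1a and Gadd45a beside the summed TPM of 21 immediate early genes (top), and of Gtse1, Ckap2 and Psrc1 beside the summed TPM of 20 G2 and M phase genes (bottom), in each library; MecomWT:R751W is on the left in red and WT on the right in blue, numbers are replicates and lines are means. In the top row replicate 1 of each genotype is highest for Plk2, Cdkn1a and the summed list. In the bottom row the 3 genes do not overlap between genotypes, and the sum of the list does. Mean log2(TPM + 1) over that list, which is not drawn, does not overlap (4.86 to 5.05 in MecomWT:R751W, 4.60 to 4.84 in WT).

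The depth and the identity of the cells bear on all of these values. The TPM ratios implied 10427533 to 12378149 reads per library. Kit was at 137 to 168 TPM in MecomWT:R751W and 162 to 198 TPM in WT, and all 10 markers of the sorted stem cell fraction had a row. Of the markers of other lineages, 1 of 9 for B cells, 6 of 15 for T and NK cells, 6 of 13 for myeloid cells, 7 of 9 for platelets and 13 of 16 for erythroid cells had a row, and Cd3e and Ly6g were among those without. The T and NK cell markers summed to 20.02 to 22.04 TPM in MecomWT:R751W and 10.52 to 11.05 TPM in WT, the myeloid markers to 95.8 to 123 and 109 to 127 TPM, and the platelet markers to 116 to 171 and 143 to 196 TPM, in the same order of genotypes. The erythroid markers summed to 331 to 406 TPM in MecomWT:R751W and 333 to 413 TPM in WT, and Car2 alone gave 271 to 349 and 293 to 364 TPM of that. Their mean log2(TPM + 1), in which each gene counts equally, was 2.65, 2.74 and 2.46 in MecomWT:R751W libraries, against 2.28, 2.13 and 1.93 in WT libraries, with no overlap. Of the 12 tested erythroid markers 10 were above 0, with a median log2 fold change of 0.35, and 0 passed the adjusted threshold. Their libraries did not overlap in 5 of the 12, or 41.7% against 9.19% of all genes, namely Klf1, Car1, Rhd, Ermap and Sptb, all higher in MecomWT:R751W. All 4 tested T and NK cell markers were above 0 and all 7 platelet markers below 0. Of the T and NK cell sums, Nkg7 alone gave means of 11.2 TPM in MecomWT:R751W and 4.31 TPM in WT. Tcf7 and Klrb1c were too low to be tested. Tcf7 was lower in MecomWT:R751W without overlap, with means of 0.653 and 1.26 TPM, and Klrb1c overlapped. The platelet sums include Thbs1, at 46.6, 15.5 and 3.29 TPM in WT libraries and 3.05 to 4.17 TPM in MecomWT:R751W. The part of such cells in the values of the members was not tested.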

How the data were processed

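RNA-seq of 6 libraries, 3 MecomWT:R751W and 3 WT, was read from 1 table of TPM that the authors deposited, with each library summing to 1000000. The submitters' processing notes name mm10 as build and DESeq2 as tool, without its role. Which kit, aligner, counter and annotation made the values, and whether strand was used, is not stated. All 18465 symbols matched RefSeq genes of GRCm38.p6, the same assembly, of which 12552 are protein-coding.

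Genotype was the single term of a limma 3.58.1 fit (R 4.3.3) with a variance trend on log2(TPM + 1), for the 16655 genes that averaged 1 TPM or more. p-values are two-sided, adjusted by the Benjamini-Hochberg method over all these genes, with a threshold of 0.05. The test was checked on simulated data. Fold changes on this scale understate the change of low genes. Whole reads implied by the ratios of the 6 TPM values within each gene (tolerance 0.001 reads) describe depth and entered 1 alternative with voom. Exon overlap was computed from GENCODE M21. Python 3.11.15 with pandas 2.3.3, numpy 2.4.6 and matplotlib 3.10.9 made the tables and figures.

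The members and lists were chosen with earlier results of these data known. All 6 values are given for Trp53, Mdm2, Mdm4, Ppm1d, Ccng1 and Bax, for members whose libraries do not overlap or whose unadjusted p is under 0.05, and for the highest member of each role. Values of Plk2, Plk3, Ddb2, Ckap2, Psrc1, Thbs1, Cdkn1a and Gadd45a by library were added after they were seen. Of the other p53 genes, Cdkn1a, Gadd45a, Trp53cor1 and up to 4 per list of smallest unadjusted p are named, beside Atm, Atr, Trim32 and Trp53i11, which were added. Alternatives changed the pseudocount (0.1 or 5), the smallest mean TPM (5 or none), the rows tested, the scaling, the trend, the replicate block and the libraries included.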

Additional observations from a re-analysis of the deposited data

How the results depend on the processing

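Over all rows 0 members passed in either direction under every setting tried. In the protein-coding rows alone 40 genes were higher and 92 lower, or 1.16% of 11394, and 0 members passed. That fit drew each gene strongly to the common variance (prior degrees of freedom 102, against 8.72 over all rows), and Plk2 had an adjusted p of 0.0604 in it. The counts of genes were 8 higher and 9 lower after rescaling to protein-coding rows, 24 and 26 with voom, 1 and 1 over genes of at least 5 TPM, and 5 and 24 in protein-coding rows with the replicate block. Leaving out a library gave 0 to 6 higher and 0 to 9 lower genes over all rows, and 17 to 63 higher and 26 to 135 lower in protein-coding rows (chosen after seeing the data), where 0 to 1 members were lower. That member was Plk2, at -1.29 without MecomWT:R751W replicate 1 (adjusted p = 1.75e-08) and -1.02 without WT replicate 3 (2.27e-05), in fits whose prior degrees of freedom were infinite, so that its own spread did not enter.

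Medians of the roles moved by less than the spread between replicates, except for the pair of other p53-linked genes. Their -0.35 became -0.18 with a pseudocount of 5 and -0.48 with voom. In other settings the set itself changed. The median was -0.19 over at least 5 TPM, where Cd82 alone was left. With no filter or after rescaling Tigar entered, and the median was again -0.19, the value of Cd82. Signs turned in 13 members. Pidd1 was at -0.00 with a pseudocount of 5 and Mdm4 at 0.00 with size factors. With any 1 library left out, Pidd1 ranged from -0.12 to 0.18, Mdm4 from -0.12 to 0.09, Ccng1 from -0.14 to 0.08, Sesn1 from -0.04 to 0.12, Ei24 from -0.19 to 0.15, Tnfrsf10b from -0.12 to 0.16, Perp from -0.04 to 0.43, Xpc from -0.03 to 0.12, Trp53inp1 from -0.06 to 0.20, Bax from -0.07 to 0.23, Plk3 from -0.39 to 0.05, Ppm1d from -0.00 to 0.25 and Ddit4 from -0.22 to 0.02. The cause was not tested.

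Same-numbered libraries correlated in their deviations at 0.14, 0.09 and 0.08, each best with its own number, and the labels do not pair them. With the replicate block 0 genes and 0 members passed, and 5 members had an unadjusted p under 0.05, against 3 without it. Depth limits the low members, since Perp had 111 and Fas 142 implied reads over all 6 libraries.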
